A study of Mus musculus with 21 samples.

Results

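The 10 immediate early genes Fos, Fosb, Jun, Junb, Egr1, Ier2, Atf3, Dusp1, Zfp36 and Btg2 were followed over 7 stages of mouse ovarian follicle growth. They were chosen by name: every probe annotated with 1 of these symbols was taken. Each gene had 1 such probe, so 10 of the 25697 probes on the array and 10 of its 15548 gene symbols were members. Of the 10, 9 passed the filter on dim probes (a detection p-value under 0.05 on at least 3 of the 21 arrays) and stood among the 10067 genes tested. Btg2 did not pass.

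The series measured RNA from 21 samples on single-colour Illumina bead arrays, 3 arrays at each of 7 stages of growth. All samples came from CD1 female mice with no genetic change named in the labels. PMD3 and PMD4 were whole ovaries collected on postnatal day 3 and 4, labelled as primordial follicles. PRIMARY held follicles of 70 to 90 µm from day 10, and TLS, the two-layered secondary follicles, measured 100 to 130 µm and came from day 12. MLS, the multi-layered secondary follicles, measured 150 to 180 µm and came from day 16. PREANTRAL held follicles of 200 to 300 µm from day 18. ANTRAL held follicles of 400 to 600 µm, mechanically dissected on day 20 from mice given pregnant mare serum gonadotropin (PMSG), which acts like follicle-stimulating hormone. PMSG is named for no other stage, apart from the conflicting label described below, so stage and PMSG cannot be told apart in ANTRAL, and age and follicle isolation cannot be told apart between PMD4 and PRIMARY. Follicles of a stage were pooled before 3 samples were taken, per the labels' protocols. No label ties the samples of a stage to different animals. The p-values given below therefore rest on differences among 3 samples that can share their source. How follicles before ANTRAL were isolated, and the time between dissection and lysis, are not given in the sources used here.

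Between 12363 and 13953 probes were detected per array, and the mean correlation of an array with the other arrays of its stage was 0.965 to 0.992. The lowest of these were TLS repeat 2 (0.965) and PMD3 repeat 2 (0.969). Some labels conflict. PREANTRAL repeat 2 carries the source name and day of ANTRAL, but its mean correlation was 0.987 with PREANTRAL arrays and 0.943 with ANTRAL arrays. PRIMARY repeat 3 carries a PMD3 stage tag in 1 field, and TLS repeat 2 and PRIMARY repeat 3 carry the tissue label Ovary. A pair of signal columns share a name for ANTRAL, so these arrays are called ANTRAL a and b here and have no repeat number. Of the defining markers, those of oocytes were detected on all arrays (7 of 7 tested) and those of granulosa cells on nearly all (11 or 12 of 12).

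Immediate early genes are transcribed within minutes of a signal such as a growth factor, a hormone acting through cyclic AMP, or mechanical or thermal stress, with no need for new protein. Many of their products are transcription factors that carry the signal to later genes, and others are enzymes or RNA-binding proteins that shut the response off. In the ovary they are known as early targets of gonadotropins in granulosa cells, and in many tissues they are also known to be induced while the tissue is being dissected.

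Some of the genes' upstream sequences hold elements through which such signals are commonly read. No upstream sequence was available for Egr1 or Ier2. Windows of 250 bases before the annotated start were found for 8 of the 10 genes (RefSeq, GRCm38.p6). They were searched on both strands for the cyclic AMP response element (CRE, TGACGTCA), its half-site TGACG, which every full CRE also contains, the AP-1 site TGACTCA, and the CArG box bound by serum response factor. A full CRE stood in 2 of the 8 windows, those of Dusp1 and Btg2, against 1.55% of all 32851 windows. The half-site stood in 6 of the 8 (Fos, Fosb, Junb, Atf3, Dusp1 and Btg2), against 17.8% of all windows. A CArG box stood in 1, that of Zfp36, against 1.47%. The AP-1 site stood in 0 of the 8, against 4.46% of all windows. The windows of Fos, Junb, Dusp1 and Zfp36 are printed because their genes peaked at 3 different stages, as given below. Capitals mark a CRE, its half-site or a CArG box, and each is written 5′ to 3′ on the gene's strand.
Fos, chr12:85473640-85473889, plus strand: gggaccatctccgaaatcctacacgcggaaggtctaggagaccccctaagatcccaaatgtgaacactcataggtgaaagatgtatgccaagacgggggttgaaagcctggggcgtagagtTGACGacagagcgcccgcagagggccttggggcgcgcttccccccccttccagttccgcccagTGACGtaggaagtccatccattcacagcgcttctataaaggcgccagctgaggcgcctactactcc
Junb, chr8:84978749-84978998, minus strand: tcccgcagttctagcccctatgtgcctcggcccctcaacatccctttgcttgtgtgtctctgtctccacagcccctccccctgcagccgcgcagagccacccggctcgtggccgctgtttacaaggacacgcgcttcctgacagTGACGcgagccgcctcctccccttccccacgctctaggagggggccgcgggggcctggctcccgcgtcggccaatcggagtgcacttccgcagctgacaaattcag
Dusp1, chr17:26508473-26508722, minus strand: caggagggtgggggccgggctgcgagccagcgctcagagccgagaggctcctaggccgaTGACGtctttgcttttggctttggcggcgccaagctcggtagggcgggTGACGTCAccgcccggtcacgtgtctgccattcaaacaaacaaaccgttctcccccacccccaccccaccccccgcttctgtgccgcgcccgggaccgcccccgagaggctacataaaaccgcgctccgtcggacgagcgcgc
Zfp36, chr7:28379229-28379478, minus strand: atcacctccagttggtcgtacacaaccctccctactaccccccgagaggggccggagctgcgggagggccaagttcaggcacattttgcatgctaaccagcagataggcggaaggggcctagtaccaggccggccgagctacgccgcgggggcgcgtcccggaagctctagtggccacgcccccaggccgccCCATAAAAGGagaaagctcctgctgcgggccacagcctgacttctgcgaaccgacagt
In Fos the half-sites begin 129 and 66 bases before the start, and in Junb 106 bases before it. In Dusp1 the full CRE begins 143 bases before the start and a further half-site 191 bases before it, while in Zfp36 the CArG box begins 58 bases before it. A match of letters is a description of the window and not a measured binding site. Sequence outside these windows was not searched.

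Most of the immediate early genes were detected on every array, and the stage of their highest level differed from gene to gene. Fos, Fosb, Junb, Egr1 and Atf3 had their highest stage mean in TLS. Jun and Zfp36 had it in PMD4, and Dusp1 in ANTRAL. PMD3 had the lowest mean of Fos, Fosb, Jun, Junb, Egr1 and Dusp1, and PRIMARY the lowest of Atf3 and Zfp36. By the moderated F test over the 7 stages (limma, Benjamini-Hochberg adjusted p under 0.05), 8 of the 9 tested members differed, all but Jun (adjusted p = 0.131), against 66.9% of all genes tested. Ier2 is among the 8, but it passed the filter only through arrays of PRIMARY, TLS and MLS, where it is higher, so nothing is read from its pass. In whole follicles and ovaries, more RNA per cell and more cells of a type that holds the RNA cannot be told apart.

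Fos encodes the founding member of the Fos proteins, which pair with Jun proteins to form the transcription factor AP-1. Its level, the background-corrected and quantile-normalized log2 signal, was 11.25, 12.07 and 11.22 on the 3 PMD3 arrays and 12.64, 13.04 and 12.44 on the PMD4 arrays. It was 12.86, 12.63 and 12.89 in PRIMARY and 13.43, 13.44 and 13.23 in TLS. All 3 TLS arrays were above all 3 PRIMARY arrays, and all PMD3 arrays were below all PMD4 arrays. In MLS the arrays gave 12.27, 13.62 and 12.07, so repeat 2 was above every TLS array and the others below. PREANTRAL arrays gave 12.44, 12.56 and 12.60, and ANTRAL arrays 12.14 (repeat 1), 12.26 (a) and 11.23 (b). In the order of stage means the gap from TLS to PRIMARY and the gap from PREANTRAL to ANTRAL were free of overlap, and the other neighbouring stages overlapped. No successive step passed the test for Fos. The nearest was PMD4 over PMD3, a difference of 1.19 ± 0.32 (SE, n = 3 and 3; limma adjusted p = 0.0732).

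Fosb encodes a second Fos protein and was the most widely ranging AP-1 member. It was 7.73, 8.33 and 6.71 in PMD3 and 9.74, 10.60 and 8.63 in PMD4, with no overlap. PRIMARY arrays gave 9.53, 9.73 and 10.10 and TLS arrays 11.18, 12.83 and 11.55, again with no overlap. MLS arrays gave 8.44, 11.49 and 8.67, and here repeat 2 lay within the TLS range while the other arrays lay below all PRIMARY arrays. PREANTRAL arrays gave 8.80, 8.51 and 9.90, and ANTRAL arrays 9.67 (repeat 1), 10.70 (a) and 9.09 (b). The TLS level was 2.06 ± 0.67 (SE) above PRIMARY and the MLS level 2.32 ± 0.67 below TLS, but neither passed the limma test across all genes (adjusted p = 0.0655 and 0.0599).

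Junb, a Jun family partner in AP-1, kept closer together within stages. It was 8.84, 9.81 and 8.95 in PMD3, 10.41, 10.49 and 9.71 in PMD4, and 10.49, 10.36 and 10.60 in PRIMARY. TLS arrays gave 11.28, 11.67 and 10.86, all above all PRIMARY arrays. MLS arrays gave 10.28, 10.87 and 9.65, PREANTRAL arrays 10.14, 10.21 and 9.99, and ANTRAL arrays 10.53 (repeat 1), 10.59 (a) and 10.08 (b). The MLS range touched the lower end of the TLS range only through repeat 2. The TLS mean exceeded PRIMARY by 0.79 ± 0.29 (limma adjusted p = 0.115) and MLS lay 1.00 ± 0.29 below TLS (adjusted p = 0.0632).

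Jun is the classical partner of Fos. Its stage means ran from 9.53 in PMD3 to 10.55 in PMD4, and every neighbouring pair of stages in the order of means overlapped. TLS arrays gave 10.84, 9.62 and 9.75, with repeat 1 above and repeats 2 and 3 below all 3 PRIMARY arrays (9.96, 9.89 and 9.79). No comparison passed the test for Jun.

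Egr1 encodes a zinc finger transcription factor that is an early target of MAP kinase signalling. Its signal was bright on every array, 8463 to 26740 units as deposited, and its level stayed between 13.11 and 14.34. The stage means were 13.44 in PMD3, 14.01 in PMD4, 14.03 in PRIMARY, 14.15 in TLS, 13.83 in MLS, 13.71 in PREANTRAL and 13.54 in ANTRAL. MLS repeat 2 gave 14.34, the highest level of all arrays, against 13.60 and 13.56 on the other MLS arrays, and ANTRAL b gave the lowest, 13.11. The stages differed in the F test (limma adjusted p = 0.0279), and no successive step passed. With arrays scaled to the same median, Egr1 was 0.75 higher in follicles than in whole ovaries (adjusted p = 0.000165) and 0.80 lower in ANTRAL than in PREANTRAL (adjusted p = 0.0212), against 0.13 higher and 0.17 lower with quantiles. That scaling also moved the median of all genes to 0.14 and -0.11 in these comparisons, and the cause of the difference was not tested.

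Atf3, a member of the ATF family of stress-responsive transcription factors, had the largest steps between successive stages among the tested members. It was 7.31, 6.92 and 5.81 in PMD3 and 7.57, 8.27 and 7.53 in PMD4, detected on all 6 arrays. In PRIMARY it was detected on 0 of 3 arrays, with levels of 4.60, 4.77 and 4.79. TLS arrays gave 8.04, 7.65 and 7.93 and were detected on 3 of 3. MLS again held undetected levels on repeats 1 and 3, 4.82 and 4.56, and a level of 8.25 on repeat 2, higher than every TLS array. PREANTRAL arrays gave 5.78, 5.13 and 6.53, of which repeat 2 was not detected, and ANTRAL arrays 7.32 (repeat 1), 7.94 (a) and 6.91 (b). The fall from PMD4 to PRIMARY was at least 6.21-fold and the rise from PRIMARY to TLS at least 6.59-fold (limma adjusted p = 0.00065 and 0.00353). Each bound was set against the dimmest signal that counted as detected on each PRIMARY array. Both calls held with the authors' deposited log2 values, where the steps were -0.89 and 0.92 against -3.07 and 3.16 here.

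Ier2, a nuclear protein of the immediate early response, and Btg2, an antiproliferative partner of the deadenylase complex, gave little signal. Ier2 was detected on 5 of 21 arrays (1 PRIMARY, 2 TLS and 2 MLS arrays), with levels of 4.44 to 5.53. Since those 5 detections let it into the test, its levels are given as a description: the highest mean, 5.34, was in MLS and the lowest, 4.53, in ANTRAL. No step between stages passed. MLS repeat 2 was the lowest MLS array for Ier2, at 4.96 against 5.53 on both others. Btg2 was detected on 0 of 21 arrays, with levels of 4.31 to 4.61, so its probe gave no measurement of change.

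Dusp1 encodes a phosphatase that switches off MAP kinases and so limits the induction of the genes above. It was 11.04, 10.40 and 10.54 in PMD3 and 12.36, 12.91 and 11.79 in PMD4. PRIMARY arrays gave 11.18, 10.89 and 11.10, all below all PMD4 arrays. TLS arrays gave 12.28, 11.26 and 11.97 and MLS arrays 11.12, 12.54 and 11.00, which overlapped. PREANTRAL arrays gave 11.26, 11.39 and 11.45, and ANTRAL arrays 12.96 (repeat 1), 12.85 (a) and 12.68 (b), with no overlap. Dusp1 was the member with the most steps past the test: it rose 3.23-fold from PMD3 to PMD4 (log2 1.69 ± 0.33, limma adjusted p = 0.0135), fell 2.46-fold to PRIMARY (log2 -1.30 ± 0.33, adjusted p = 0.00449) and rose 2.75-fold from PREANTRAL to ANTRAL (log2 1.46 ± 0.33, adjusted p = 0.00214). The first step lost its call without PMD3 repeat 2 (adjusted p = 0.0669), without PMD4 repeat 1 (0.0662) or without PMD4 repeat 2 (0.0976), and the fall to PRIMARY lost it with arrays scaled to the same median (log2 -0.83, adjusted p = 0.0561). With the replicate block, which keeps ANTRAL repeat 1 as the only ANTRAL array, the rise to ANTRAL was 1.52 and was not called.

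Zfp36 encodes tristetraprolin, which binds AU-rich elements of cytokine and immediate early mRNAs and speeds their decay. It was 10.21, 10.51 and 9.38 in PMD3 and 10.98, 11.33 and 10.37 in PMD4. PRIMARY arrays gave 8.89, 9.25 and 9.67, all below all PMD4 arrays, and TLS arrays 10.80, 10.90 and 10.23, all above all PRIMARY arrays. MLS arrays gave 9.34, 11.55 and 9.41, with repeat 2 the highest of all 21 arrays. PREANTRAL arrays gave 10.25, 10.35 and 10.46, and ANTRAL arrays 10.93 (repeat 1), 11.21 (a) and 10.19 (b). The fall from PMD4 to PRIMARY was 3.09-fold (log2 -1.63 ± 0.44, limma adjusted p = 0.00655), and the rise to TLS, 1.38 ± 0.44, did not pass (adjusted p = 0.0601).

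Read by comparison, few members passed at any step. From PMD3 to PMD4, 1 of 9 rose, Dusp1, and 0 fell, where 1.31% of all genes were called, 0.844% higher and 0.467% lower. The members' median difference was 1.02 against 0.01 over all genes. Of the 9, 6 had an unadjusted limma p under 0.05, against 1352 of all 10067 genes. From PMD4 to PRIMARY, 3 of 9 fell (Atf3, Dusp1 and Zfp36) and 0 rose, where 31.5% of genes were called, 15.6% higher and 15.9% lower. Fos, Fosb, Junb and Egr1 differed by 0.09, 0.13, 0.28 and 0.02 at that step, none past the test. From PRIMARY to TLS, 1 of 9 rose, Atf3, where 7.33% of genes were called, 3.98% higher and 3.35% lower. The members' median was 0.78 against -0.02 over all genes.

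From TLS to MLS, limma called 0 of the 9 members, against 3.29% of all genes, 1.78% higher and 1.51% lower. Of the members, 4 had an unadjusted limma p under 0.05 (Fos, Fosb, Junb and Atf3), against 1712 of all 10067 genes. Without MLS repeat 2, 4 members passed as lower in MLS, where 2.34% of all genes were called and 0.998% were lower. Those were Fos (log2 -1.20 ± 0.28, limma adjusted p = 0.0283), Fosb (-3.29 ± 0.58, 0.0049) and Junb (-1.30 ± 0.30, 0.0266), and Atf3, at least 6.65-fold above both remaining MLS arrays in TLS, since neither detected it (adjusted p = 0.000237). MLS repeat 2 was singled out after its values were seen, and leaving it out takes away the highest MLS value of each of these genes and lowers their spread, so these passes are no support for a fall. From MLS to PREANTRAL 0 of 9 passed, where limma called 15.5% of genes, 5.72% higher and 9.8% lower. At this step 0 of the members had an unadjusted limma p under 0.05, against 2734 of all 10067 genes. From PREANTRAL to ANTRAL 1 of 9 rose, Dusp1, where 27.9% of genes were called, 13.1% higher and 14.8% lower. Atf3 was 1.58 ± 0.63 higher in ANTRAL (limma adjusted p = 0.0678), and passed without MLS repeat 2 (adjusted p = 0.00205), to which the same limit applies.

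In the mean of the 5 follicle stages against the mean of the 2 whole-ovary stages, 3 of 9 members were higher, the AP-1 genes Fos, Fosb and Junb, where 49.3% of genes were called, 25.3% higher and 24% lower. Fos differed by 0.53 ± 0.19 (limma adjusted p = 0.0254), Fosb by 1.39 ± 0.39 (0.00597) and Junb by 0.81 ± 0.17 (0.00057). Fos lost its call without PMD3 repeat 1 or 3 or without PMD4 repeat 1 or 3 (adjusted p = 0.0557 to 0.0775). The whole-ovary stages were not alike in these genes. PMD3 had mean levels of 11.52 for Fos, 7.59 for Fosb and 9.20 for Junb and PMD4 of 12.71, 9.66 and 10.20, against 12.80, 9.79 and 10.48 in PRIMARY, the youngest isolated follicles. Atf3 lay 0.90 ± 0.37 lower in follicles (adjusted p = 0.0508), and passed without MLS repeat 2 (log2 -1.13, adjusted p = 0.00017), an array that holds its highest follicle value and was singled out after its values were seen. With arrays scaled to the same median, 7 members were called, 6 higher and 1 lower, where 5132 genes were called, 63.3% of them higher, and the median of all genes was itself 0.14. Ier2 is among the 6. It was detected on follicle arrays only and entered the test through them, so nothing is read from its call.

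**Figure D1:**
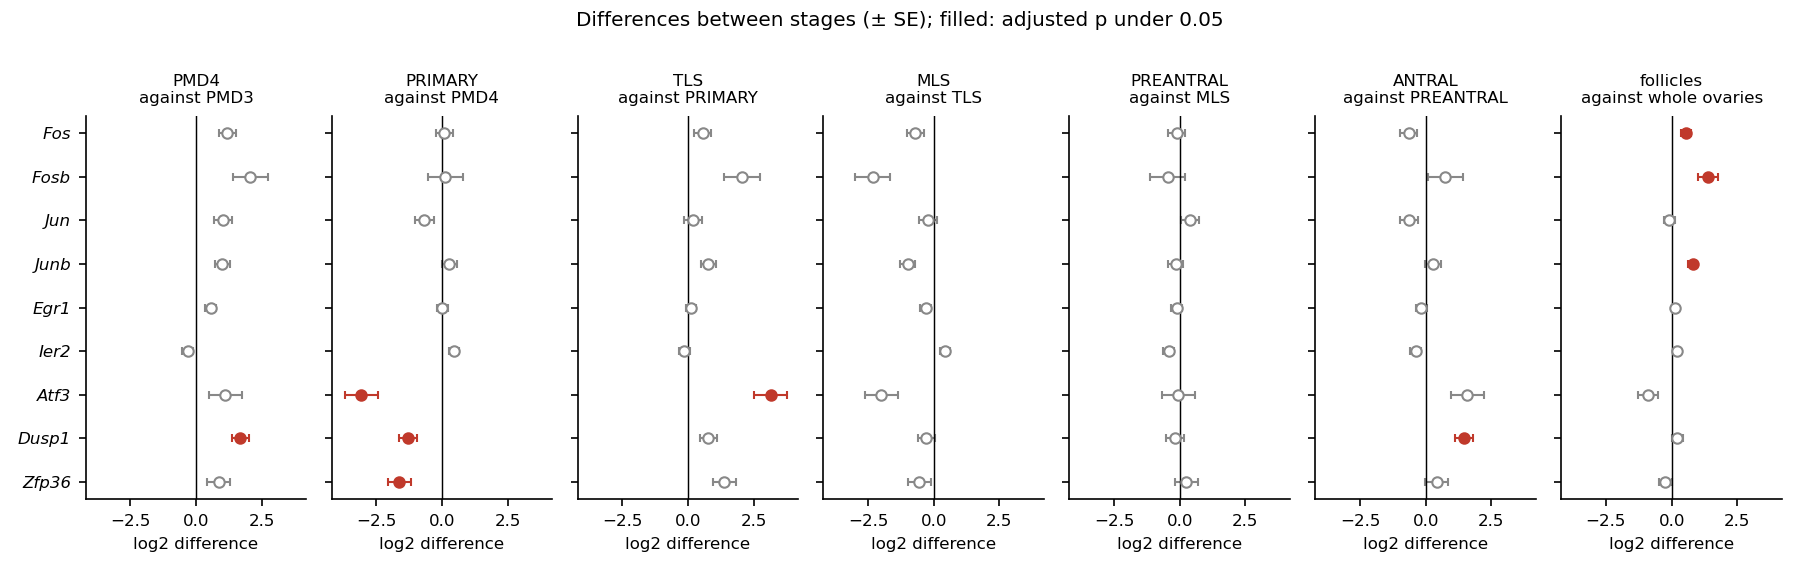
Difference in log2 level between successive stages and between follicles and whole ovaries (horizontal axes) for the 9 tested genes (vertical axis), with bars for the SE of the limma fit over 21 arrays; filled points passed an adjusted p under 0.05. The points farthest from 0 are those of Atf3 into and out of PRIMARY; its probe was not detected in PRIMARY, so these measured differences stand for bounds of at least 6.21- and 6.59-fold.

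Markers of other cell types moved with some of these steps. Between PMD3 and PMD4, where Dusp1 rose, 3 of 12 granulosa markers rose, Fshr (3.36-fold), Hsd17b1 (log2 1.59) and Inha (1.72-fold). The leukocyte marker Lyz2 (2.49-fold, 1 of 5) and the erythroid marker Alas2 (log2 1.17, 1 of 1) rose as well. The other leukocyte markers were not called: Cd52 (log2 -0.38), Coro1a (-0.33) and Cd14 (-0.06) were lower and Laptm5 (0.40) higher. The median of the leukocyte list was -0.06. Of all genes 0.844% were called higher from PMD3 to PMD4. Between PMD4 and PRIMARY, 8 of 8 endothelial and 5 of 5 leukocyte markers fell, 7 of 11 stromal and smooth muscle markers fell and 1 rose. Other lists went the other way: 8 of 12 granulosa markers rose and 0 fell, and 4 of 7 oocyte markers rose and 1 fell. Of 7 theca markers 2 rose and 1 fell. Over all genes 15.9% were called lower and 15.6% higher. The summed endothelial level was 11.96 to 12.07 in PMD4, 9.74 to 10.29 in PRIMARY and 11.41 to 11.87 in TLS. The endothelial cadherin Cdh5 and the receptor Tie1 were detected on 0 of 3 PRIMARY arrays. The summed leukocyte level was 10.81 to 10.88 in PMD4, 7.74 to 7.90 in PRIMARY and 7.86 to 8.47 in TLS, and Cd52, Cd14, Lyz2 and Coro1a were detected on 0 of 3 PRIMARY arrays. Of 7 surface epithelium markers 5 fell between PMD4 and PRIMARY. Upk3b fell by a measured 49.3-fold, but it was detected on 1 of 3 PRIMARY arrays only, with a mean level of 4.99, near the background. The others were Krt18, Lgals7, and Krt19 and Upk1b, which were detected on 0 of 3 PRIMARY arrays. Alas2 fell at least 5.67-fold and was likewise detected on 0 of 3. Between PRIMARY and TLS Upk3b (9.76-fold as measured, with the same limit in PRIMARY) and Upk1b rose again, 2 of the 7 surface epithelium markers. At that step 5 of 8 endothelial, 6 of 11 stromal, 4 of 7 theca and 1 of 5 leukocyte markers rose, with 0 called lower in these lists. Of 7 oocyte markers 0 rose and 1 fell, and 0 of 12 granulosa markers were called. The shares of all genes were 3.98% higher and 3.35% lower. Between PREANTRAL and ANTRAL, where Dusp1 rose, 4 of 8 endothelial, 4 of 5 leukocyte, 4 of 7 theca and 3 of 11 stromal markers rose and 7 of 7 oocyte markers fell. Of 12 granulosa markers 0 rose and 4 fell, and of 7 surface epithelium markers 1 rose and 2 fell. Among all genes 13.1% were called higher and 14.8% lower. The part of these cell types in the differences of Atf3, Zfp36 and Dusp1 was not tested.

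The spread between arrays of a stage was large for most members. The SD within stages, pooled over the 7, was 0.97 for Fosb and 0.91 for Atf3, the 10th and 14th largest of 10067 genes. It was 0.62 for Zfp36, 0.49 for Jun, 0.46 for Dusp1, 0.45 for Fos and 0.40 for Junb, and 0.25 for both Egr1 and Ier2. The median of the 9 was 0.46 against 0.27 over all genes, and the members' percentiles among all genes had a median of 95.6. Without MLS repeat 2 that median percentile was 82.3, the lowest value with any array left out.

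Deviations from the stage mean were compared between members. PMD4 repeat 3 was the lowest PMD4 array in 9 of 9 members and ANTRAL b the lowest ANTRAL array in 9 of 9, where over all genes these arrays were the lowest in 31.3% and 33.4%. Both counts include Ier2, which was detected on 0 of 3 arrays in PMD4 and in ANTRAL, so nothing is read from its order there. PMD4 repeat 2 and ANTRAL a were each the highest array of their stage in 7 of 9, against 32.1% and 40.2% of all genes. The median deposited signal was 131.3, 142.8 and 110 on PMD4 repeats 1, 2 and 3. It was 112.4, 135 and 113 on ANTRAL repeat 1, a and b. The part of signal level in the order of these arrays was not tested. In PMD3, PRIMARY and TLS no array led in more than 5 members. Deviations from the stage means, correlated over the 21 arrays, gave 0.91 for Fos with Egr1, 0.90 for Fosb with Zfp36, 0.89 for Fos with Zfp36 and 0.86 for Atf3 with Zfp36. Over all 36 pairs the correlations ran from -0.63 to 0.91 with a median of 0.63. Ier2 was negative with every other tested member, from -0.63 with Jun to -0.03 with Junb. Over the 28 pairs without Ier2 the correlations ran from 0.15 (Jun with Junb) to 0.91 with a median of 0.74. Leaving out the 3 MLS arrays, the same 28 pairs ran from -0.18 to 0.83 with a median of 0.49. These correlations are descriptions over arrays that share labelling, normalization and, within a stage, the pool of follicles.

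**Figure D2:**
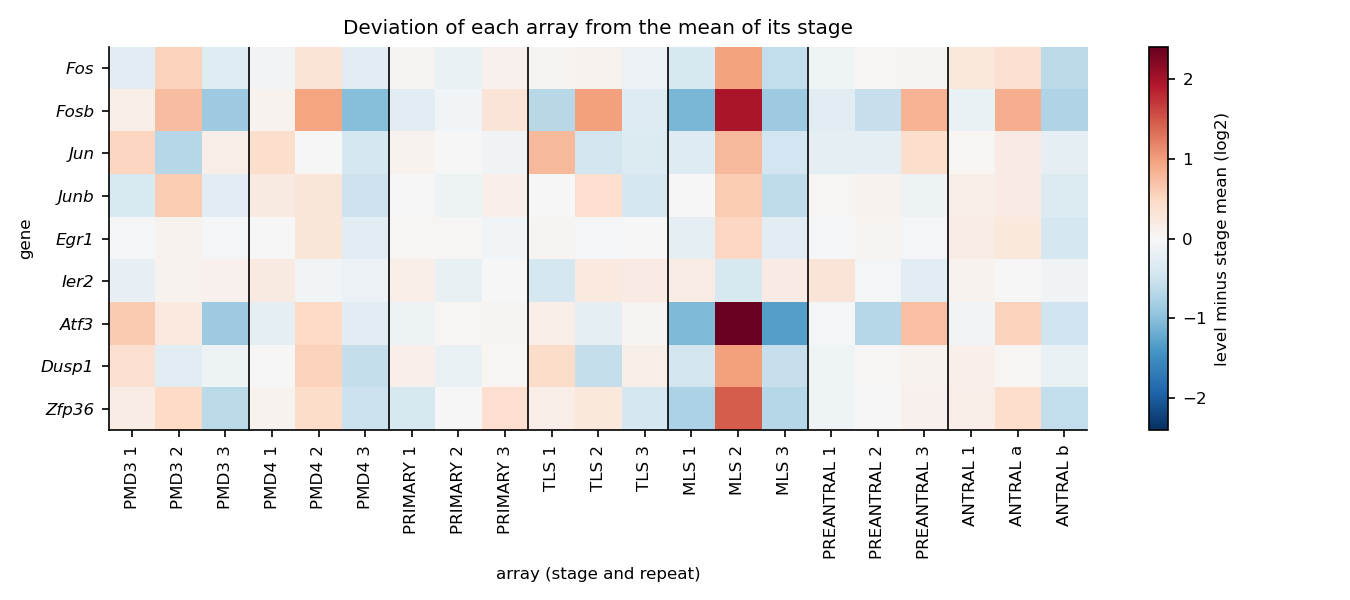
Level minus stage mean (log2, colour) of the 9 tested genes (vertical axis) on the 21 arrays (horizontal axis, vertical lines separating stages). The MLS repeat 2 column is above its stage mean in every gene but Ier2, and the PMD4 repeat 3 and ANTRAL b columns are below theirs in all 9. Among these 9, Ier2 was not detected on any PMD4 or ANTRAL array.

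MLS repeat 2 carried the widest deviation. It was above both other MLS arrays in 8 of the 9 members, against 34.8% of all genes. Atf3 was at least 8.63-fold higher there than on MLS repeats 1 and 3, where it was not detected. The gap to the mean of MLS repeats 1 and 3 was 2.94 for Fosb, 2.18 for Zfp36, 1.48 for Dusp1, 1.45 for Fos and 1.16 for Jun. Only 60 genes (0.596%) had a gap over 1, 6 of them members, and the median gap of all genes was -0.01. Beside the members the largest gaps were those of Egr2 (2.91), a relative of Egr1, the chemokine Cxcl1 (2.60), Ccn1 (2.46), a secreted matrix protein induced by serum, and the zinc finger factor Klf4 (2.38), and these were picked as the next in rank. Socs3, a feedback inhibitor of cytokine signalling, had a gap of 1.68 and Nfkbiz, a nuclear IκB protein, of 1.56, both chosen after their values were seen. Genes outside the lists used here also ranked above Nfkbiz, among them Smad2 (2.19), Cadps (1.89), Spink2 (1.66), Pparg (1.59) and Pdk4 (1.57). Of 9 tested relatives in the AP-1, EGR and NR4A families, 4 were highest on this array, with a median gap of 0.13. Marker lists of cell types had median gaps between -0.31 (stroma and smooth muscle) and 0.30 (erythroid, 1 gene), and endothelial markers -0.22. The median deposited signal of MLS repeat 2 was 121.2 against 96.0 and 104.7, and 13907 probes were detected against 13180 and 13241. The part of signal level, RNA quality or handling in this array's profile was not tested.

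**Figure D3:**
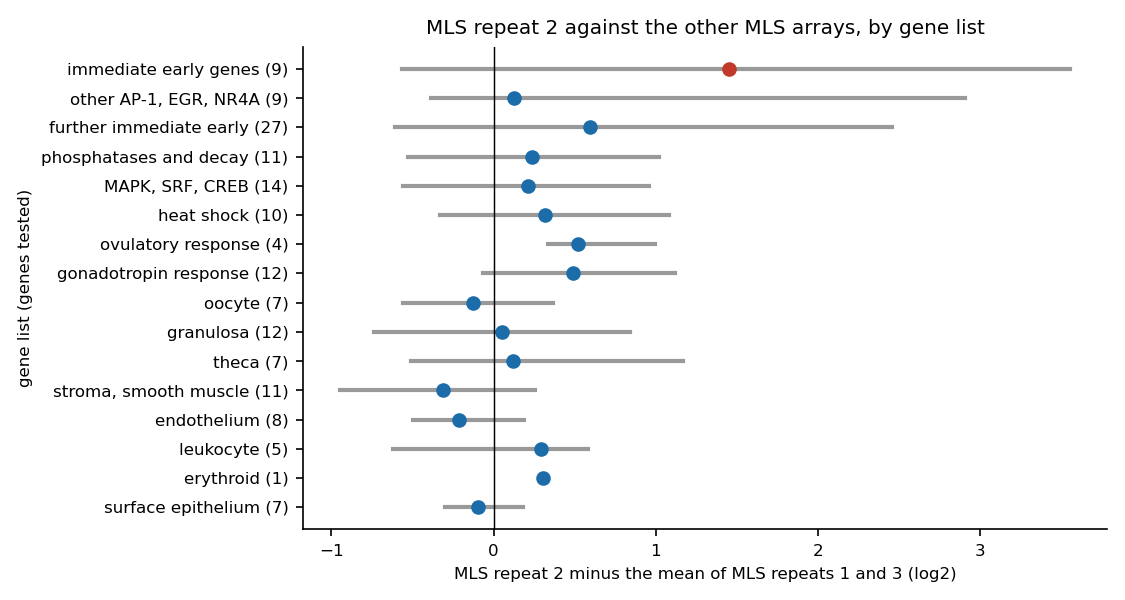
Difference between MLS repeat 2 and the mean of MLS repeats 1 and 3 (log2, horizontal axis) for each gene list (vertical axis, genes tested in parentheses), with points for the median of the list and bars from its lowest to its highest gene. The immediate early genes have the highest median, 1.45, and the next highest is that of the further immediate early genes, 0.59.

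The genes whose levels over the 21 arrays were most like the mean profile of the 9 tested members were found by Pearson correlation among all other tested genes. The closest were Klf4 (0.85), Egr2 (0.84), Nfkbiz (0.83), Ppp1r15a (0.79), Sertad1 (0.77), Ier3 (0.75), Ccn1 (0.75), Cops2 (0.71), Odc1 (0.71) and Egr4 (0.70). Among the members, Fosb had 0.90 with the profile it belongs to, and Ier2 -0.35. With deviations from the stage means in place of levels, Ccn1 (0.89), N4bp2l1 (0.89), Ppp1r15a (0.89), Klf4 (0.86), Heph (0.83), Nfkbiz (0.83), Cxcl1 (0.82), Zfp326, Irf1 and Klf2 (0.80 each) came closest. Ccn1, Ppp1r15a, Klf4 and Nfkbiz stood in both lists of 10.

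Other early response genes, taken from lists of the pathway, moved at some of the same steps. Of 27 further immediate early genes tested, 8 rose and 0 fell from PRIMARY to TLS, with a median of 0.68. At this step 3.98% of all genes were called higher and 3.35% lower. The largest rises were Klf4 (2.41), Gadd45a (1.91), a growth arrest gene, and Klf6 (1.80). From TLS to MLS 8 fell and 1 rose, where 1.51% of all genes were called lower and 1.78% higher. The largest falls were Csrnp1 (-2.11), Ccn1 (-1.75) and Ier3 (-1.61), and the rise was Rgs2 (0.77). Without MLS repeat 2, 7 of the 27 passed as lower and 0 as higher, where 0.998% of all genes were lower. That array was above both other MLS arrays in 17 of the 27 and was singled out after its values were seen. The passes without it are therefore no support for a fall. From PMD4 to PRIMARY 7 fell, led by Klf2 (-2.34), Id1 (-2.10) and Id2 (-2.07), and 3 rose, Myc (1.10), Gadd45g (1.02) and Rgs2 (0.79). Over all genes 15.9% were called lower and 15.6% higher there. From PREANTRAL to ANTRAL 9 rose, led by Csrnp1 (4.25), the kinase gene Sgk1 (3.38) and Id2 (1.46), and Rgs2 fell by 1.41. The shares of all genes were 13.1% higher and 14.8% lower. From PMD3 to PMD4 2 rose, Socs3 (1.95) and Id2 (0.66), against 0.844% of all genes.

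Of 9 tested relatives in the AP-1, EGR and NR4A families, Nr4a2, an orphan nuclear receptor, rose by 1.23 from PMD3 to PMD4, fell by 1.13 to PRIMARY and rose by 1.30 to TLS. Egr4, detected on 0 of 3 PRIMARY arrays, rose at least 2.05-fold from PRIMARY to TLS. From TLS to MLS limma called 0 of the 9, with 5 at an unadjusted p under 0.05, against 1712 of all 10067 genes. Without MLS repeat 2, 3 passed as lower, against 0.998% of all genes. That array was singled out after its values were seen, so these passes are no support for a fall. Batf3 fell at least 1.28-fold from PREANTRAL to ANTRAL, where it was detected on 0 of 3 arrays. A further list held 11 tested genes: other phosphatases, Spry1, Spry4 and Spred2, deadenylase partners and an mRNA decay factor. Among them Dusp6, which acts on ERK, fell by 0.99 from PMD4 to PRIMARY, rose by 1.39 to TLS, fell by 1.28 to MLS and rose by 1.47 from PREANTRAL to ANTRAL. Dusp7, its close relative, went the other way at 3 of these steps, with 1.33 higher in PRIMARY than in PMD4, 0.75 lower in TLS and 1.21 lower in ANTRAL. Btg1, a relative of Btg2, fell by 1.55 from PMD4 to PRIMARY and rose by 1.20 to TLS. The 14 tested genes of the upstream MAP kinase, SRF and CREB pathway had 2 rises from PMD4 to PRIMARY, Mapk8 (0.83) and Map2k1 (1.07), where 15.6% of all genes were called higher. They had 0 calls by limma from PRIMARY to TLS (3 at an unadjusted p under 0.05) or from TLS to MLS (1). Of all 10067 genes, 2169 had an unadjusted limma p under 0.05 from PRIMARY to TLS and 1712 from TLS to MLS.

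Of 10 heat shock and stress genes tested, Hspa1a, the inducible HSP70 gene, rose by 2.27 from PMD3 to PMD4 (limma adjusted p = 0.0278) and fell by 4.39 to PRIMARY (adjusted p = 6.23e-07). In the latter step Hspb1, Hmox1 and Hspa8 also fell (-2.25, -1.61 and -0.99) and Hsph1 rose (0.82). From PRIMARY to TLS, where Atf3 rose, limma called 0 of the 10, with a median difference of 0.44. At an unadjusted limma p under 0.05 there were 4 of the 10, against 2169 of all 10067 genes. From PREANTRAL to ANTRAL Hspb1 rose by 1.96.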

How the data were processed

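RNA from 21 samples was hybridised to single-colour Illumina bead arrays. The deposited table gives an unnormalized signal intensity and a detection p-value for each probe and array, per the file headers, and a second table holds the authors' normalized log2 values. The submitters' processing notes name limma. From the intensities, background correction and quantile normalization were done with limma 3.58.1 (neqc, offset 16, R 4.3.3). Of 25697 probes, 15836 were detected on at least 3 arrays. They gave 10067 named genes, each taken by its brightest probe. A mean per stage was fitted over all arrays (lmFit, eBayes) with Benjamini-Hochberg adjustment, and the fitting procedure was checked on simulated data. The members and gene lists were chosen with earlier results of these data known. From each other list, up to 3 called genes with the largest change are named per comparison, or every called gene where at most 5 were called, and of genes ranked by correlation the first 10. The rarer direction of a list was named after its values were seen. Repeat numbers were not used to pair samples in the main fit. Of 45 same-numbered pairs of arrays, 12 had deviations correlating over 0.1 (range -0.19 to 0.72). Of 90 differently numbered pairs, 13 did (range -0.55 to 0.39). Whether same-numbered arrays share a source is not given in the labels and was not tested. Chip layout is not given in the sources used here, so no batch was fitted. The number of arrays, 3 per stage, limits the precision.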

Additional observations from a re-analysis of the deposited data

How the results depend on the processing

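No called member changed sign under any alternative run. Without 1 array at a time the members called were 7 to 9 in the F test, 0 to 2 from PMD3 to PMD4, 3 in every case from PMD4 to PRIMARY, 1 to 3 from PRIMARY to TLS, 0 to 4 from TLS to MLS (4 without MLS repeat 2), 0 from MLS to PREANTRAL, 1 to 2 from PREANTRAL to ANTRAL and 2 to 4 between follicles and ovaries. The median percentile of spread ran from 82.3 to 97.5. No label says that same-numbered arrays share more than a number. With the replicate block, which leaves out ANTRAL a and b, the members called were 3 from PMD3 to PMD4, 4 from PRIMARY to TLS, 2 from TLS to MLS and 0 from PREANTRAL to ANTRAL (118, 759, 351 and 1558 of all genes, against 132, 738, 331 and 2809 without it), where Dusp1 kept its direction (1.52, adjusted p = 0.0596). With arrays scaled to the same median, 1 was called from TLS to MLS, 4 from PREANTRAL to ANTRAL and 7 between follicles and ovaries (5132 of all genes, against 4966 with quantiles). That scaling moved the median of all genes to 0.18 from PMD4 to PRIMARY and -0.11 from PREANTRAL to ANTRAL, and the share of calls that were higher from 49.6% to 63.7% in the first, from 54.3% to 44.3% from PRIMARY to TLS and from 51.3% to 63.3% between follicles and ovaries. With the variance taken from the compared stages, 5 were called from PMD4 to PRIMARY, 3 from PRIMARY to TLS and 2 from PREANTRAL to ANTRAL. That setting changed the calls over all genes from 132 to 51 (PMD3 to PMD4), from 3171 to 4189 (PMD4 to PRIMARY), from 738 to 167 (PRIMARY to TLS) and from 331 to 5 (TLS to MLS). Array weights gave 4, 5, 2 and 5 members for PMD3 to PMD4, PMD4 to PRIMARY, PREANTRAL to ANTRAL and follicles against ovaries, and 387, 4833 and 191 genes for PMD3 to PMD4, PMD4 to PRIMARY (3171 with equal weights) and TLS to MLS. Leaving out PMD3 repeat 2 and TLS repeat 2 together gave 2 members and 81 genes from PMD3 to PMD4 and equal-median scaling 87 genes there. The causes of these shifts were not tested. Ier2 is counted in the 7 members between follicles and ovaries with equal-median scaling. It is also in the 5 from PMD4 to PRIMARY with the variance of the compared stages, and in both counts of 5 with array weights. Nothing is read from these calls, since Ier2 entered the test only through stages where it is higher. Atf3 lay near the background in PRIMARY, and without background correction its steps from PMD4 to PRIMARY and on to TLS shrank to -1.59 and 1.64 with the calls kept. No test of single outlying arrays was run on groups of 3.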

Other observations

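Of 12 gonadotropin-response genes tested, 3 rose and 1 fell from PREANTRAL to ANTRAL, the step at which Dusp1 rose. Among all genes 13.1% were called higher there and 14.8% lower. Star and Cyp11a1, which act at the start of steroid synthesis, rose at least 6.34-fold and by 4.42 on the log2 scale, Star being detected on 0 of 3 PREANTRAL arrays. Sgk1, which is also among the further immediate early genes, rose by 3.38, and the natriuretic peptide receptor gene Npr2 fell by 0.72. Inhba, the activin subunit gene, rose 9.85-fold from PRIMARY to TLS and 17.9-fold from MLS to PREANTRAL (limma adjusted p = 0.000356 and 6.61e-06). Its SD in TLS was 1.65, and its mean was 11.11 in TLS and 9.51 in MLS, a step that was not called. Of 4 genes of the ovulatory response tested, Adamts1, a secreted protease, fell by 1.00 from PMD4 to PRIMARY, rose by 1.39 to TLS and rose by 1.54 from PREANTRAL to ANTRAL. Cd44 fell by 1.11 from PMD4 to PRIMARY, and Btc fell by 0.71 from PREANTRAL to ANTRAL.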
